A study of Mus with 16 samples.

Results

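This report describes how far the response of the mouse forebrain to complete loss of *Kdm5c* differed from its response to partial loss. The measure is a difference of responses, taken on the log2 scale for each gene as the change from WT males to *Kdm5c*-KO males minus the change from WT females to *Kdm5c*-HET females. A value above 0 means that the change was more positive in the KO males. All 16 animals of the series enter it, with 4 in each of the 4 groups, and no animal was left out. The study collected forebrains (cortices and hippocampi) from pups at postnatal day 6 and sequenced their poly(A) RNA. The KO males carried the deleted allele on their only X chromosome, the HET females carried 1 deleted and 1 intact allele, and the WT males and WT females carried intact alleles only. All animals were of a mixed C57BL/6J and 129S1/SvImJ background, and the allele was made by Cre-mediated deletion of part of the gene. The allele is not stated in the study's methods to be limited to a cell type, and the pups came from a few litters.

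Complete loss was present only in males and partial loss only in females, so the dose of *Kdm5c* and the sex of the animal cannot be told apart in this contrast. Gene symbols could be paired with 1015 of the Ensembl identifiers, 1011 of which were among the 17866 genes tested, and the paired genes are those that the study listed as changed in these animals. *Kdm5c* itself is not paired, so its level is not analysed here. Total counts ranged from 21513783 to 30063352 per animal. Mature forebrain neuron genes were present in every group, with group means of 1008 to 1263 CPM (counts scaled to a common library size, TMM-normalized) for *Nrgn*, a postsynaptic calmodulin-binding protein. Each animal's label also carries a letter, D or E, that the sources used here do not explain. The letter E stands on 1 WT male, 2 KO males, 2 WT females and 3 HET females, which gives it a net weight of 0 in the difference of responses. In bulk tissue, fewer cells of a type and less RNA per cell cannot be told apart.

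KDM5C removes methyl groups from lysine 4 of histone H3, a mark found at active promoters and enhancers, and it is best known as a repressor of genes that are not normally used in the tissue. In the brain these include germline genes, which serve meiosis and the making of eggs and sperm. The gene lies on the X chromosome and escapes X inactivation, so that the copy on the inactive X is used as well. The study describes the degree of this escape as varying across tissues, so the copies need not be used equally. A heterozygous female therefore keeps an intact copy that is used to some degree in her cells, and a hemizygous male keeps none. How much of the WT dose this leaves in each cell was not measured here.

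The responses differed for 7 genes, and all of them rose more in the KO males. These were *Cilp2*, *Tnxb* and *Ntn3*, which encode secreted or matrix proteins, *Scarf2*, which encodes a scavenger receptor-like surface protein, *Tex14*, which encodes a protein of the bridges between male germ cells, *Srrm3*, which encodes a regulator of neuronal microexon splicing, and *Nkpd1*, which encodes a protein with a predicted NTPase domain. The 7 genes were 0.0392% of the 17866 tested, at an adjusted p (q) under 0.1 in edgeR's quasi-likelihood test. No gene differed in the other direction at that threshold, which is 0% of the genes. At an unadjusted p under 0.05, 584 genes (3.27%) were more positive in the KO males and 554 (3.1%) were more positive in the HET females. DESeq2 called 22 and 5 genes in these directions, limma-voom 6 and 0, and edgeR with the letter as a covariate 18 and 6. All 7 genes were among the 22 of DESeq2 and the 18 of the fit with the letter, and 6 of them were among the calls of limma-voom.

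**Figure D1:**
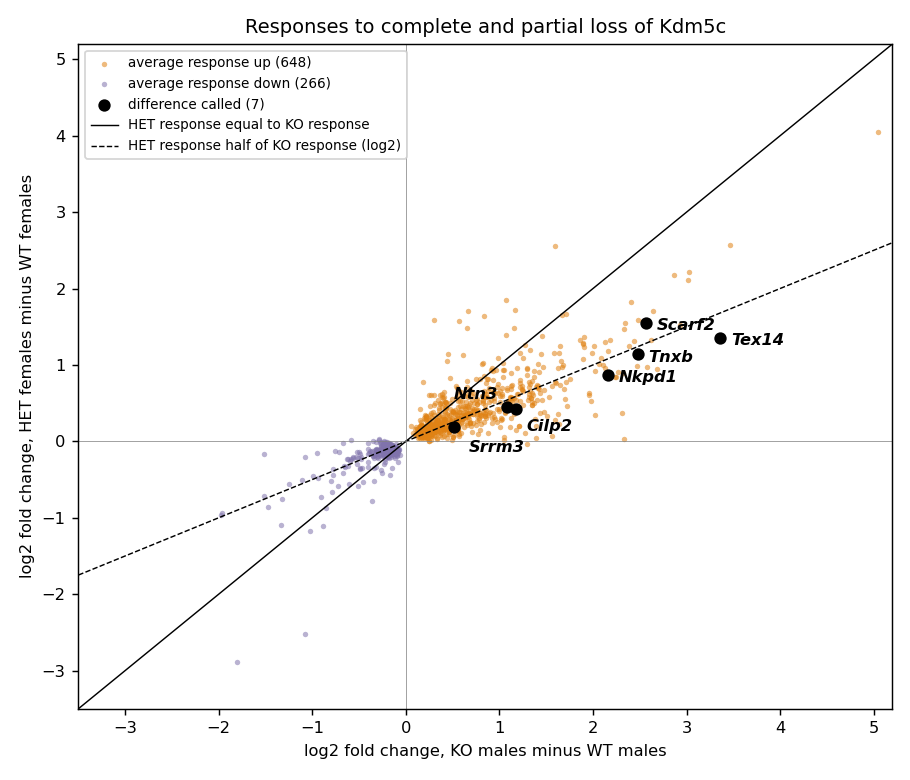
Log2 fold change in HET females (vertical axis) against that in KO males (horizontal axis) for genes whose average response passed q under 0.1, with 648 that rose in orange, 266 that fell in purple and 2 of these beyond the axes not drawn. The 7 genes called by the difference of responses (black) all lie below the solid line of equal responses and near the dashed line where the HET response is 0.5 of the KO response.

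*Cilp2* encodes a cartilage intermediate layer protein of the extracellular matrix. It had the smallest p-value of all genes in the contrast. It is placed at chr8:69880366-69887392 (GRCm38.p6, RefSeq), where its span overlaps 1 other RefSeq gene. The WT males had 17.2, 17.7, 18 and 19.5 CPM, and the KO males had 38.8, 39.6, 42.2 and 42.5 CPM. The WT females had 16.7, 17.4, 17.9 and 18.7 CPM, and the HET females had 20.7, 23, 25.4 and 25.6 CPM. Every HET female thus lay above every WT animal and below every KO male, and the WT males and WT females overlapped. *Cilp2* rose by 1.17 in KO males and by 0.42 in HET females on the log2 scale, a difference of 0.75 ± 0.098 (SE, q = 0.00483).

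*Tnxb* encodes tenascin X, a matrix glycoprotein that binds collagen fibrils. Its span, chr17:34660453-34719815, overlaps 2 other RefSeq genes, and the strand setting of the counting is not given in the sources used here, so reads of these genes may be shared. The KO males had 27.6, 33.8, 44.8 and 49.3 CPM and the WT males had 6.92 to 7.1 CPM. The HET females had 14.2, 18.4, 18.6 and 22.2 CPM and the WT females had 7.28 to 9.14 CPM. No mutant group overlapped another group, and all WT males lay below all WT females. The difference of responses was 1.34 ± 0.218 (SE, q = 0.0214). It was 0.68 among animals of letter D and 1.76 among those of letter E, and both KO males of letter E had more *Tnxb* than those of letter D. With limma-voom the value was 1.31 and the adjusted p was 0.391, and with WT males 2D and 5D left out together it was 1.35 with an adjusted p of 0.215.

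*Ntn3* encodes netrin 3, a secreted axon guidance protein, at chr17:24203831-24209387, overlapping 1 other RefSeq gene. The WT males had 21.3, 22.3, 24.3 and 25.5 CPM, and the KO males had 45.9, 48.5, 51.6 and 52.3 CPM. The WT females had 22.3, 24.6, 24.7 and 25.6 CPM, and the HET females had 29.4, 32.9, 35.2 and 35.8 CPM. The WT groups overlapped, the HET females lay above them, and the KO males lay above the HET females. The log2 change was 1.08 in KO males and 0.46 in HET females, a difference of 0.63 ± 0.102 (SE, q = 0.0214), and without WT males 2D and 5D the value was 0.66 with an adjusted p of 0.101.

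*Scarf2*, at chr16:17797282-17808294, overlaps no other RefSeq gene and was far higher in both mutants than in WT animals. The KO males had 36.3, 39.9, 40.9 and 45.6 CPM against 5.89, 6.05, 7.15 and 8.45 CPM in the WT males. The HET females had 16.7, 19.9, 20.3 and 21.1 CPM against 5.96, 6.51, 6.79 and 7.55 CPM in the WT females. The KO males were well above the HET females, and the HET females well above all WT animals. The change was 2.56 in KO males and 1.55 in HET females on the log2 scale, and the difference of 1.01 ± 0.155 (SE) passed at q = 0.0152.

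*Tex14* is a gene of the germline that the forebrain does not normally use. It spans chr11:87405013-87555823, and 9 other RefSeq genes overlap that span, so that its reads may not all be its own. The WT males had 0.724 to 1.01 CPM and the WT females 0.616 to 1.07 CPM. The KO males had 8.16, 8.27, 8.64 and 8.89 CPM, whereas the HET females had 1.7, 1.9, 2.16 and 2.85 CPM. The KO males were close to each other and far above the HET females, which in turn all lay above the WT animals. *Tex14* rose by 3.36 in KO males and by 1.35 in HET females, and the difference of 2.0 ± 0.278 (SE, q = 0.00561) was the largest log2 value among the 7 genes.

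*Nkpd1*, at chr7:19517491-19525057, had 7.49, 7.78, 8.16 and 9.14 CPM in the KO males and 1.52, 1.53, 1.8 and 2.51 CPM in the WT males. The HET females had 2.97, 3.01, 3.73 and 3.9 CPM and the WT females had 1.66, 1.67, 1.91 and 2.16 CPM. The order of the groups was the same as for *Scarf2*, without overlap between mutants and WT animals. The difference was 1.29 ± 0.233 (SE, q = 0.058). This call rested on single animals more than the others did. It was lost when any of 9 animals was left out (2D, 5D, 1E, 2E, 3E, 1D, 3D, 6E or 8E, one at a time), with an adjusted p of up to 0.201.

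*Srrm3*, at chr5:135806860-135874773, is abundant in neurons and changed least. The WT males had 73.4, 73.4, 73.7 and 75.5 CPM and the KO males had 99.6, 105, 109 and 109 CPM. The WT females had 76.6, 77.5, 78.4 and 79.5 CPM and the HET females had 86.2, 88.0, 90.2 and 92.0 CPM. The 4 groups did not overlap, and the WT males lay below the WT females. The difference was 0.32 ± 0.0547 (SE, q = 0.0322). Without KO male 2E the adjusted p was 0.125, and without HET female 6E it was 0.148.

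**Figure D2:**
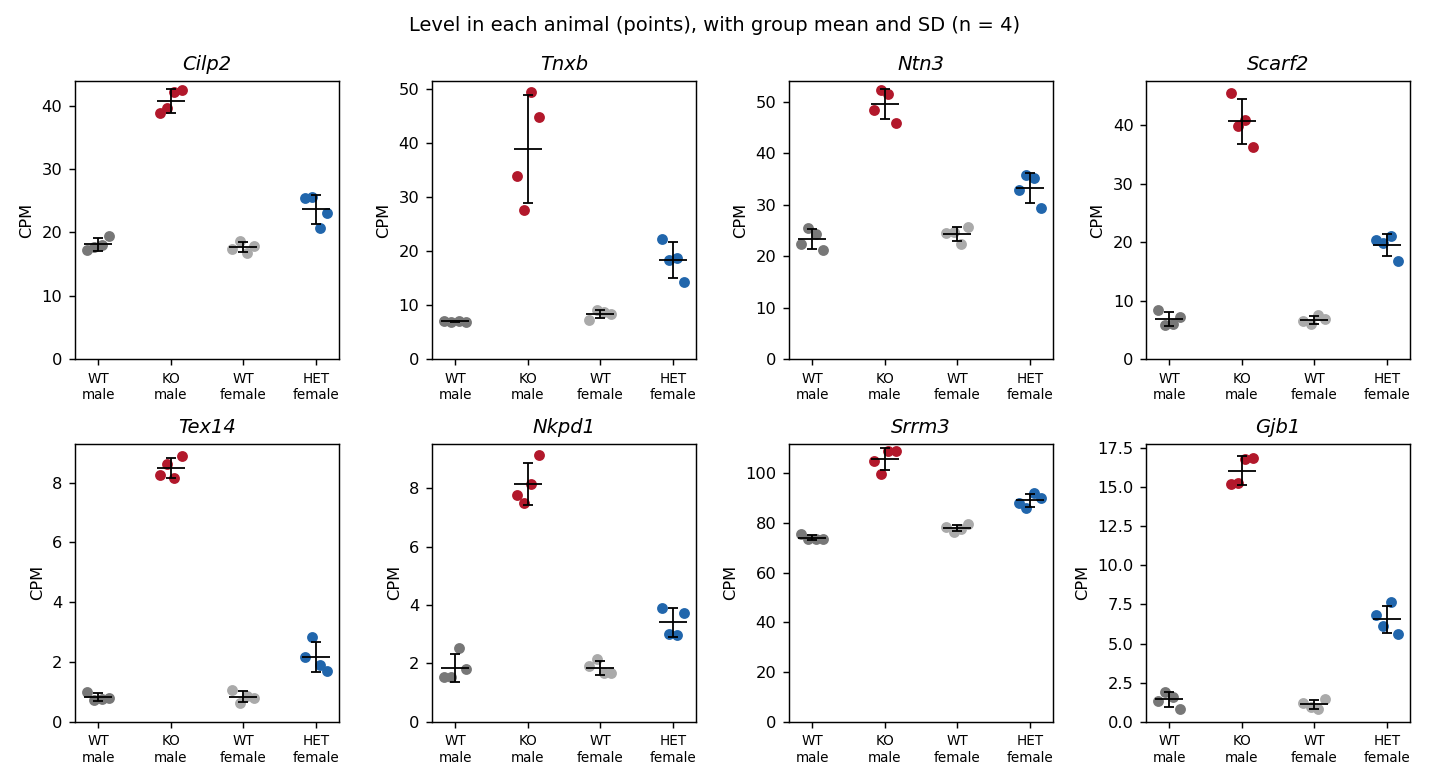
CPM (vertical axis, from 0) of the 7 called genes and of *Gjb1* in each animal (points), with the mean and SD of the 4 animals of each group (black). In all 8 panels the HET females sit between the WT animals and the KO males, as in *Tex14*, with 1.7 to 2.85 CPM against 8.16 to 8.89 CPM in the KO males.

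Values within the letters are given for the 7 genes as a description, since the genes were chosen for a positive difference over these same animals and each letter has a group of 1 animal (HET female 9D in D, WT male 1E in E). *Cilp2* gave 0.66 and 0.71, *Scarf2* gave 0.96 and 1.01, and *Tex14* gave 1.92 and 2.06 in D and E, respectively, in descriptive log2 CPM means. Without WT males 2D and 5D, which leaves 2 WT males, *Cilp2*, *Scarf2* and *Tex14* were called and the other 4 genes were not, with an adjusted p of 0.182 for *Srrm3* and 0.616 for *Nkpd1*.

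Among genes outside the threshold, several had the same order of the group means. ENSMUSG00000097134, which has no paired symbol, had a difference of 0.83 (q = 0.126). *Tcfl5*, a transcription factor of the testis, had a difference of 0.77 (q = 0.331), and *Myo18b*, an unconventional myosin of muscle, had 0.63 (q = 0.331). ENSMUSG00000097134 and *Myo18b* were picked after their values were seen.

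In the other direction, with a more positive change in HET females, the smallest p-values belonged to genes of another pattern. *Ddt*, which encodes D-dopachrome tautomerase, had mean levels of 4.06 CPM in WT males, 2.81 in KO males, 3.0 in WT females and 4.16 in HET females, with a difference of -1.0 (q = 0.331). *Sphk1*, a kinase that makes sphingosine 1-phosphate, had a difference of -2.82 (q = 0.38). Counts of *Sphk1* were low, with 3 to 22 in KO males and 19 to 38 in WT males. They were 7 to 37 in HET females and 9 to 16 in WT females. For both genes the fitted change was negative in KO males and positive in HET females, and neither change is claimed here because the difference did not pass. DESeq2 called both, with adjusted p-values of 0.0325 each, and these 2 genes were also picked after their values were seen.

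A second contrast asked whether the HET response departed from 0.5 of the KO response on the log2 scale. No gene departed from it at q under 0.1 (0% in either direction), and at an unadjusted p under 0.05, 376 genes (2.1%) were above 0.5 of the KO response and 316 (1.77%) were below. The edgeR fits with DESeq2's size factors, the letter as a covariate or at least 10 counts in every animal, DESeq2 and limma-voom called none either, whereas edgeR without a filter on low counts called 26 and 13. A gene that is not called may still depart from 0.5. For the 7 genes, the ratio of the HET to the KO response on the log2 scale ranged from 0.36 (*Cilp2*) to 0.60 (*Scarf2*). The unadjusted p for the departure was 0.0427 for *Scarf2*, which lay above 0.5 of the KO response, and 0.047 for *Cilp2*, which lay below, and it was 0.154 to 0.568 for the other 5.

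The scale decides where these genes lie relative to 0.5. In CPM, the gain of the HET females over WT females was 0.26 ± 0.056 (SE, by error propagation over 4 animals per group) of the gain of the KO males for *Cilp2*, 0.17 ± 0.035 for *Tex14*, 0.25 ± 0.045 for *Nkpd1*, 0.31 ± 0.072 for *Tnxb*, 0.34 ± 0.066 for *Ntn3*, 0.35 ± 0.052 for *Srrm3* and 0.38 ± 0.038 for *Scarf2*. All 7 ratios were thus below 0.5 in CPM. These genes were chosen for a smaller HET response, so that the ratios are a description of them and not a test.

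*Gjb1*, which encodes the gap junction protein connexin 32, shows the effect of the scale most plainly. The KO males had 15.2, 15.3, 16.8 and 16.9 CPM and the WT males had 0.831 to 1.93 CPM. The HET females had 5.59, 6.11, 6.81 and 7.65 CPM and the WT females had 0.834 to 1.45 CPM. All HET females lay between the WT animals and the KO males. On the log2 scale *Gjb1* rose by 3.46 in KO males and by 2.57 in HET females, a ratio of 0.74, which exceeded 0.5 of the KO response by 0.84 (unadjusted p = 0.00076, adjusted p = 1). In CPM, the gain of the HET females was 0.37 of that of the KO males. The difference of responses of *Gjb1* was 0.89 ± 0.265 (SE) and did not pass (q = 0.6).

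To describe genes that responded without choosing them for a difference, the average of the 2 responses was tested. It called 648 genes that rose (3.63%) and 266 that fell (1.49%). Taken singly, the KO response called 635 up (3.55%) and 302 down (1.69%), and the HET response called 86 up (0.481%) and 5 down (0.028%). With each animal left out in turn, falls of the KO response numbered 107 (without 5D) to 424 (without 6D), rises of the HET response went down to 50 (without 3D) and its falls to 0 (without 3D). All 7 genes above belong to the 648. Among the 648, the median log2 change was 0.59 in KO males and 0.35 in HET females, and the summed HET changes were 59.9% ± 5.58 (SE, jackknife over the 16 animals) of the summed KO changes. The HET change was smaller in 549 of them and of opposite sign in 1. At an unadjusted p under 0.05, 174 of the 648 genes (26.9%) rose more in KO males and 2 (0.309%) rose more in HET females. Those 2 were *H2-Ab1*, which encodes an MHC class II chain, with 0.587 CPM in KO males and 1.07 CPM in HET females on average, and *Arhgef19*, which encodes a guanine nucleotide exchange factor and was named after its values were seen. The average includes both responses, so these counts describe the genes it called and are not compared by a test.

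The genes that rose were spread widely around these summaries. On the log2 scale 253 had a ratio below 0.5, 296 had a ratio of 0.5 to 1 and 99 a ratio of at least 1. The median ratio was 0.58 on the log2 scale and 0.49 in CPM, where 336 of the 648 lay below 0.5. Among the 10 genes with the smallest p in the rise of the average response, *Rps4l*, a copy of a ribosomal protein gene, had a ratio of 0.68, *Cldn3*, which encodes a tight junction claudin, 0.66, and *Itprid1* 0.64 on the log2 scale. Their differences of responses were 0.60, 0.49 and 0.89, with q of 0.407, 0.6 and 0.504. *Rps4l* has close copies in the genome, so that its counts are uncertain.

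**Figure D3:**
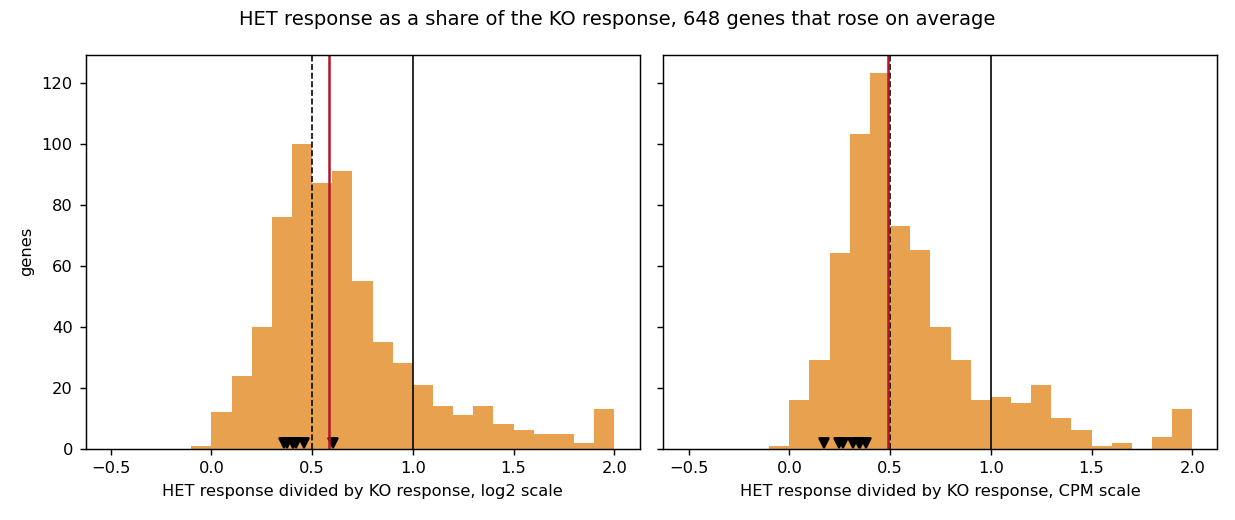
Number of genes (vertical axis) by the HET response divided by the KO response (horizontal axis, values beyond -0.5 and 2 placed at the ends), on the log2 scale (left) and in CPM (right), for the 648 genes that rose on average. The dashed line is at 0.5, the solid black line at 1 and the red line at the median (0.58 and 0.49), and triangles mark the 7 called genes.

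The share that the HET females reached is given by the level in WT animals, without a test between levels. The 116 genes under 1 CPM in WT animals had median log2 changes of 1.39 in KO males and 0.92 in HET females, and the summed HET changes were 62.6% of the KO changes. The 280 genes at 1 to 10 CPM had 0.72 and 0.45, with a share of 58.5%. The 252 genes over 10 CPM had 0.29 and 0.18, with a share of 57.7%. The size of the response thus fell with the WT level in both mutants, in a set where a gene of low level needed a larger change to be called. The 3 shares ranged from 57.7% to 62.6%. No SE was computed for the share of a single level, so that a difference between levels was not tested. The called genes were 1, 3 and 3 in these bins. Of the rising genes with a symbol, 17 lay on the X chromosome, where the share of summed changes was 59.2%, and 460 on other chromosomes, where it was 53.6%. The median ratio on the log2 scale had the opposite order, with 0.44 on the X chromosome and 0.52 elsewhere, and the sum on the X chromosome includes the large changes of *Gjb1*. Genes with a symbol had mostly been listed for a change in males, and none on the X chromosome was called by the difference.

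The genes that fell had smaller changes. The median was -0.22 in KO males and -0.12 in HET females, and the summed HET changes were 59.1% ± 23.1 (SE, jackknife) of the KO changes. The fall was larger in KO males at an unadjusted p under 0.05 in 48 of the 266 genes (18%) and larger in HET females in 0, and none of the 266 was called by the difference. *Hsph1*, which encodes a chaperone of the HSP110 family, had the smallest p-value among them in the average response. The KO males had 185, 189, 192 and 196 CPM and the HET females had 209, 216, 217 and 230 CPM, against 227 to 251 CPM in WT males and 241 to 253 CPM in WT females. Both mutant groups lay below the WT animals of their sex, and the KO males below the HET females. The difference of responses was -0.16 ± 0.0549 (SE, q = 0.683). *Rxfp2*, a receptor for insulin-like peptide 3, had means of 2.0 CPM in WT males, 0.51 in KO males, 2.16 in WT females and 1.13 in HET females, with a difference of -1.02 (q = 0.759).

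Each animal was then placed on the scale of the response, by the mean log2 CPM of the rising genes minus the mean of WT animals of its sex, over genes called by the average response in a fit that left that animal out. The KO males had 0.609, 0.666, 0.768 and 0.81, and the HET females had 0.352, 0.394, 0.459 and 0.501. The WT males ranged from 0.0302 to 0.094 and the WT females from 0.0138 to 0.111. Every HET female lay between the highest WT animal and the lowest KO male. The 4 HET females and the 4 KO males did not overlap, and in the KO males the values of letter E were above those of letter D. Since genes in such sets are called because they rose in the other mutants of the series, the position of both mutant groups above 0 is fixed in part by the choice, and the sets share most of their animals.

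The falling genes did not separate the animals in this way. With the animal left out, KO males ranged from -0.311 to -0.17, HET females from -0.197 to -0.0378, WT males from -0.202 to -0.0515 and WT females from -0.261 to 0.0124. The lowest WT animals were 1E, 4E and 5E, with -0.202, -0.168 and -0.261, which are all of the WT animals with the letter E. The letter thus moved with the falling genes among WT animals, and mutants carry it more often. With the letter as a covariate, the average response called 823 rises and 375 falls, among them 240 of the 266 falls, and the HET share was 63% and 54.2% of the KO changes, respectively. The number of falling genes also depended on single animals, with 502 called without WT female 5E and 123 without HET female 8E.

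**Figure D4:**
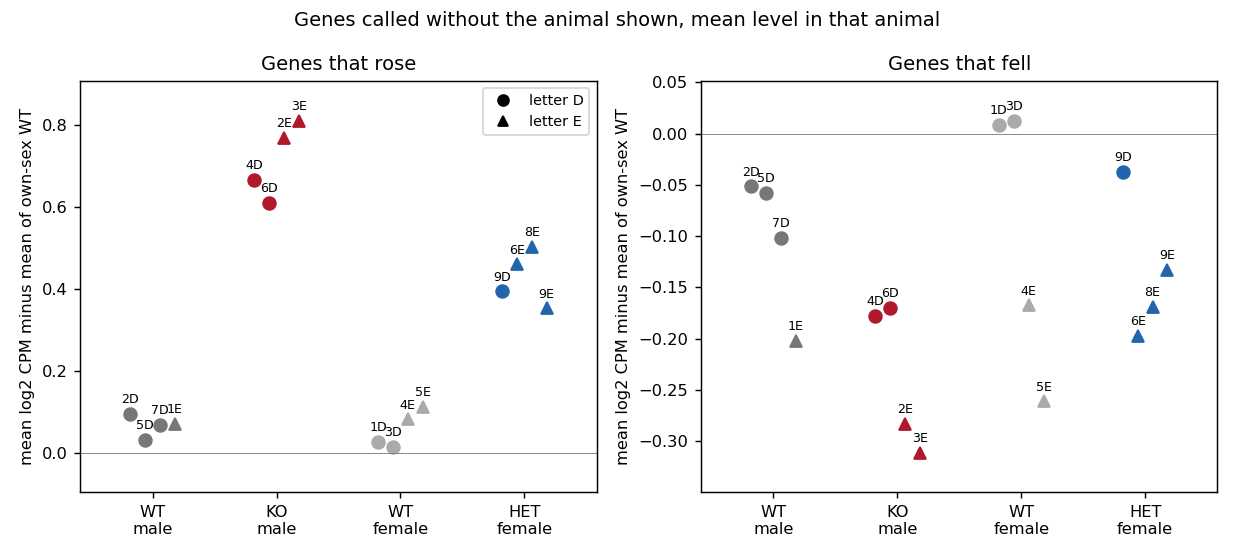
Mean log2 CPM minus the mean of WT animals of the same sex (vertical axis) in each animal, over genes that rose (left) or fell (right) in a fit without that animal, with circles for letter D and triangles for letter E. On the left HET females (0.352 to 0.501) sit between WT animals and KO males (0.609 to 0.81), and on the right WT animals of letter E reach down to -0.261, among the mutants.

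The kinds of genes were described with lists of known members. The lists were written with earlier results of these data known, so that called genes within them are a description and not evidence about a kind. Only members with a symbol could be used, and most of these were listed by the study because they changed in the males of this series, so that the direction of the male response within a list is not independent evidence and a larger change in KO males is favoured by that choice. Over all 1011 genes with a symbol, 250 (24.7%) were more positive in KO males and 162 (16%) more positive in HET females at an unadjusted p under 0.05. Among the 460 of them that rose on average and lay outside the X chromosome, 155 (33.7%) and 2 (0.435%) were so. The list counts below are read beside these shares, and none was tested as a set.

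Germline genes were mostly more positive in KO males. Of 40 listed, 17 had a symbol, and 10 of the 17 (58.8%) were more positive in KO males at an unadjusted p under 0.05 and none in HET females. Of the 17, 15 rose on average, and the shares among rising genes with a symbol outside the X chromosome were 33.7% and 0.435%. But 16 of the 17 were called as a rise in KO males, which favours a larger change in KO males. The share among all genes so called was not computed, so the excess over 33.7% is not read as a trait of germline genes. These shares were not compared by a test. Only *Tex14* passed the adjusted threshold. The median log2 change was 1.12 in KO males and 0.55 in HET females, with the KO response of 16 and the HET response of 5 called as a rise, beside 558 and 80 of the 1011 genes with a symbol. *Zar1*, an oocyte factor needed after fertilization, had means of 6.06 CPM in KO males, 2.14 CPM in HET females, 1.08 CPM in WT males and 0.984 CPM in WT females, a difference of 1.33 (q = 0.424).

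The values of single germline genes were as follows, and they were not compared with each other by a test. *Tdrd6*, a tudor protein of the germ cell chromatoid body, had 9.79 CPM in KO males and 5.95 CPM in HET females, against 4.49 and 4.79 CPM in the WT groups, a difference of 0.82 (q = 0.407). *Tdrd1*, a tudor protein that acts with PIWI proteins on transposon RNA, had 8.63 and 6.42 CPM against 4.68 and 3.69 CPM, a difference of 0.07 (q = 0.986) whose sign turned when 1 of 3 animals was left out (-0.0078 without KO male 4D, -0.146 without WT female 4E and -0.0926 without HET female 9D). *Ddx4*, the germ cell helicase VASA, had a difference of 0.99 (q = 0.759), and *Syce2*, a protein of the synaptonemal complex, 0.32 (q = 0.709). *Rnf17* (1.15, q = 0.777) and *Acrbp* (0.76, q = 0.69), which serve spermatids and the acrosome, were also among the 10. *Naa11* was the only member whose fitted changes had opposite signs, with 1.49 in KO males and -1.09 in HET females. Its difference was 2.58 (q = 0.331). Its counts were low, with 11 to 40 in KO males and 3 to 6 in HET females, against 5 to 8 in WT males and 9 to 13 in WT females. Among these genes, *Tdrd1* and *Tdrd6* are named here after their values were seen, as are *Ddx4*, *Rnf17*, *Acrbp* and *Naa11*. *D1Pas1*, a testis helicase, had 37, 41, 60 and 88 counts in the KO males and 0, 7, 7 and 9 in the HET females, against 0 to 4 in WT males and 0 to 1 in WT females, so that no fold change is given for it.

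Of the 31 listed extracellular matrix genes, 21 had a symbol. They included 3 called genes (*Cilp2*, *Ntn3* and *Tnxb*), beside 7 called among all 1011 genes with a symbol. Of the 21, 6 (28.6%) were more positive in KO males at an unadjusted p under 0.05 and 2 (9.52%) more positive in HET females. The first share is near the 24.7% over all genes with a symbol. Of the 21, 16 rose on average, and the share among rising genes with a symbol outside the X chromosome was 33.7%. The other 3 of the 6 were *Hapln3*, a link protein of hyaluronan, with a difference of 0.56 (q = 0.715), and the matrix metalloproteinases *Mmp11*, with 0.61 (q = 0.777), and *Mmp2*. The 2 in the other direction were the collagen chains *Col4a3* (-1.08, q = 0.686) and *Col6a3* (-0.57, q = 0.715), with a lower mean in KO males than in the other 3 groups. *Col9a2*, a chain of a cartilage collagen, behaved otherwise, with 31.8 CPM in KO males, 23.3 CPM in HET females, 16.1 CPM in WT males and 13.9 CPM in WT females, which is 0.60 of the KO gain in CPM and a difference of 0.24 (q = 0.777). *Otol1*, a matrix protein of the inner ear named after its values were seen, had 37, 38, 39 and 51 counts in the KO males and 4, 12, 15 and 16 in the HET females, with at most 1 count in each WT animal.

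In the smaller lists no difference passed the adjusted threshold. *Slc18a3*, the vesicular acetylcholine transporter, had means of 8.95 CPM in KO males and 2.27 CPM in HET females, against 1.42 and 1.17 CPM in the WT groups, a difference of 1.74 (q = 0.407). *Pnmt*, the enzyme that makes adrenaline, had a difference of 1.49 (q = 0.483), the neuropeptide *Nts* 0.38 (q = 0.777) and the neuropeptide *Gal* 0.20 ± 0.334 (SE, q = 0.95). *Hspa1b*, an inducible HSP70 chaperone, had 1.18 (q = 0.406), and *H2-Q2*, an MHC class I gene with close copies, 0.68 (q = 0.723). Only 3 of 14 listed inhibitory neuron genes had a symbol. At an unadjusted p under 0.05, 2 of the 3 (66.7%) were more positive in KO males, beside 24.7% of all genes with a symbol. A list of 3 genes does not describe the kind. *Sp9*, a transcription factor of developing interneurons, had 20.4 CPM in KO males and 15.1 to 15.8 CPM in the other 3 groups, a difference of 0.40 (q = 0.709). *Htr3a* had 5.09 CPM in KO males and 3.26 to 3.46 CPM in the other 3 groups, a difference of 0.52 (q = 0.777). The third, the interneuron peptide *Vip*, had 5.16 CPM in KO males and 6.1 CPM in HET females. It had 7.71 and 7.11 CPM in the WT groups, a difference of -0.36 (q = 0.81). *Pcdhb17*, of the clustered protocadherins, had 0.36 (q = 0.7).

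Respiratory chain genes had differences in the other direction. All 10 named members of the 27 listed had a more negative change in KO males at an unadjusted p under 0.05. The share in this direction was 16% over all genes with a symbol and 3.1% over all genes tested. It was not computed for genes with a symbol that fell in KO males, which would be the closer set. The median log2 change of the 10 was -0.25 in KO males and 0.03 in HET females. They have a symbol because the study listed them as changed, mostly in males, which favours genes that are high in WT males. In all 10, WT males had the highest mean of the 4 groups, 1.16 to 1.37 times the mean of WT females, whereas the means of KO males, WT females and HET females lay within 1.15 times of each other. *Cox8a*, a subunit of complex IV, had 202 CPM in WT males, 170 in KO males, 164 in WT females and 166 in HET females, a difference of -0.26 (q = 0.752). *Uqcrq*, a subunit of complex III, had -0.28 (q = 0.635), and *Ndufs6*, a subunit of complex I, -0.55 (q = 0.483). No gene of the list was called by the difference.

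Haemoglobin genes, which mark red blood cells, also had the highest group mean in WT males. *Hba-a1* had 43.3, 47.5, 56.3 and 56.9 CPM in WT males and 27.5, 32.3, 36.6 and 39.3 CPM in KO males. It had 35.1, 38.7, 40.2 and 40.3 CPM in WT females and 35.6, 38.5, 39.6 and 42.9 CPM in HET females. The WT males lay above all other animals, and the other 3 groups overlapped. The difference was -0.61 ± 0.14 (SE, q = 0.366). It was -0.48 for *Hbb-b1* (q = 0.723) and -0.66 for *Hba-a2* (q = 0.631). Genes of the same haemoglobin chain are near copies, so that the counts of all these genes are uncertain, *Hba-a1* included. The 4 named haemoglobin genes were also listed by the study as changed, so that WT males above KO males is part of how they were chosen. The part of blood in the difference of the respiratory chain genes was not tested.

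**Figure D5:**
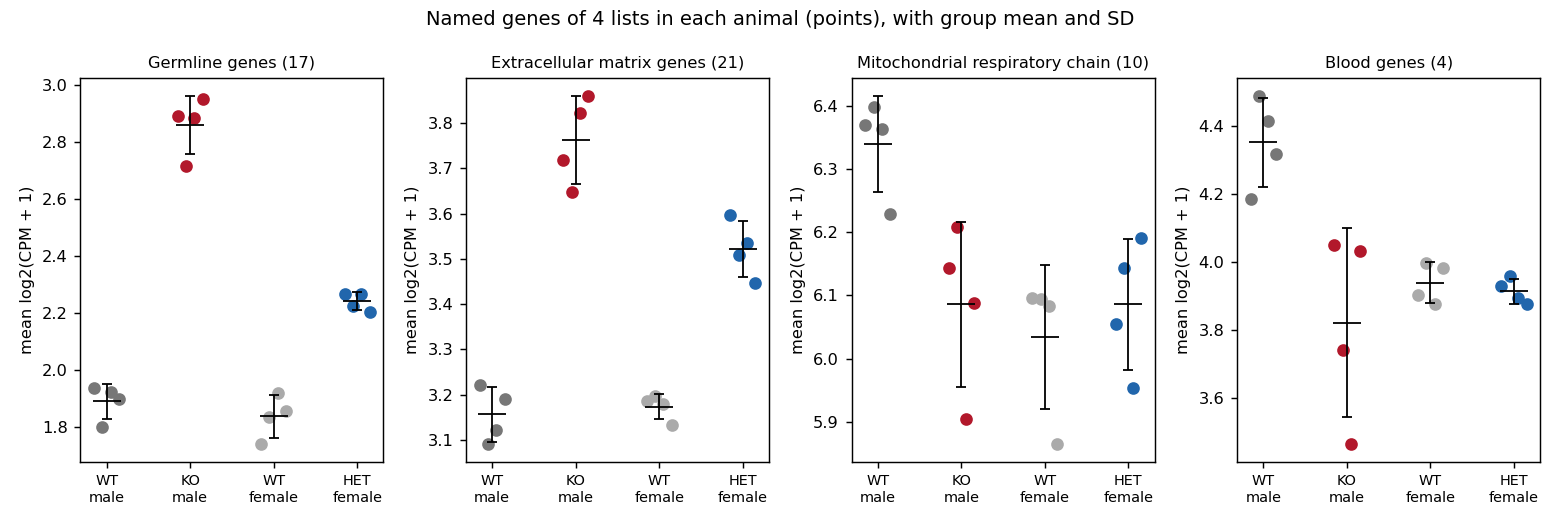
Mean log2(CPM + 1) over the named genes of 4 lists (number of genes in the panel titles) in each animal (points), with the group mean and SD of 4 animals (black). For germline and matrix genes the HET females sit between WT animals and KO males (means of 2.24 against 2.86 for germline genes), whereas for respiratory chain and haemoglobin genes the WT males (6.34 and 4.35) sit above the other groups.

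The choroid plexus is the tissue in the ventricles that secretes cerebrospinal fluid, and its genes followed single animals. *Ttr*, its most abundant marker, had 201 and 202 CPM in WT males 2D and 5D, 181 and 191 CPM in WT females 1D and 3D, and 84.5 and 57.7 CPM in HET females 8E and 9E, and 0.277 to 5.6 CPM in the other 10 animals, all KO males among them. The difference was -4.37 ± 2.08 (SE, q = 0.777), and it was 0.74 without WT males 2D and 5D. *Aqp1*, a water channel of that tissue, had -1.68 (q = 0.777). *Cilp2* had 17.2 and 17.7 CPM in WT males 2D and 5D, and 18 and 19.5 CPM in the other WT males. Of astrocyte, microglia and endothelial markers, 1 each had a symbol, and the difference had an unadjusted p above 0.05 for all of them. Of 7 named synaptic genes, 1 (14.3%) was more positive in HET females at an unadjusted p under 0.05, near the 16% over all genes with a symbol. It was *Stx1a*, a syntaxin of the presynapse, with -0.17 (q = 0.759). *Bcas1* of oligodendrocytes had -0.62 (q = 0.763).

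Lastly, *Mdk* and *Jpx* had larger changes in HET females, but the difference passed for neither. *Mdk*, which encodes the growth factor midkine, had 13.2, 13.4, 14.4 and 15.2 CPM in HET females and 10.2 to 10.7 CPM in WT females, against 12.4, 13.2, 15.6 and 17.7 CPM in KO males and 11.5, 12.7, 13.8 and 15.2 CPM in WT males. The HET females lay above the WT females, and the males of both genotypes overlapped and had a wider spread. All WT males also lay above all WT females, and the HET females lay within the range of the males. The difference was -0.27 ± 0.147 (SE, q = 0.783). *Jpx*, a noncoding RNA of the X inactivation centre, had 7.79, 8.12, 8.29 and 8.31 CPM in HET females and 5.2, 5.55, 5.84 and 7.45 CPM in WT females, against 4.34 to 6.07 CPM in KO males and 4.86 to 5.22 CPM in WT males. Its HET females lay above the animals of all other groups, the closest of which was WT female 5E. The difference was -0.36 ± 0.169 (SE, q = 0.777).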

How the data were processed

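The authors mapped paired-end poly(A) reads to mm10 with STAR 2.5.3a, removed duplicates, kept unique reads and counted them per gene with featureCounts (Subread 1.5.0). They deposited raw counts of 54219 Ensembl genes in 16 animals. Totals of 21513783 to 30063352 counts per animal set the counting precision. The main test was that of edgeR 4.0.16 under R 4.3.3 (filterByExpr, 17866 genes, TMM, glmQLFit and glmQLFTest, 1 mean per group over all animals). The Benjamini-Hochberg threshold was 0.1, and "called", "rose" and "fell" refer to it. Log2 CPM used a prior count of 2. The average of both responses is orthogonal to their difference if the groups vary alike. No pair of the 24 within groups agreed within sampling noise, and each animal is 1 replicate.

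The members, lists and tests were chosen with earlier results of these data known. Named genes were those called, the 10 with the smallest p in each direction of the average response, up to 4 and 2 per list by average and difference, and genes of interest to the study. Others are said to be picked after their values were seen. Symbols came from the study's tables, and coordinates from RefSeq (GRCm38.p6) by symbol. Alternatives were DESeq2 1.42.0, limma 3.58.1 (voom), size factors, filters, the label letter, a threshold of 0.05, and leaving out animals. The test of the difference of responses was tried on simulated data first, in edgeR, DESeq2 and limma-voom. The authors' own comparisons were not used. Promoter sequences, *Kdm5c*, *Xist* and Y-linked genes are not analysed here.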

Additional observations from a re-analysis of the deposited data

Results flagged for a closer look

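The responses to complete and partial loss differed, by the test of the difference itself, for 7 genes. The log2 differences (KO males minus HET females) were 0.75 for *Cilp2*, 2.0 for *Tex14*, 1.01 for *Scarf2*, 0.63 for *Ntn3*, 1.34 for *Tnxb*, 0.32 for *Srrm3* and 1.29 for *Nkpd1*, and sex and allele dose cannot be told apart in them.

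Among 12 genes shown animal by animal, 48 groups of 4 were checked for an animal that stands apart from the other 3 by Dixon's criterion, which chance meets in about 1 group in 20. It was met by WT male 2D for 2 genes, with 7.1 CPM of *Tnxb* against 6.92 to 6.95 in the other WT males and 75.5 CPM of *Srrm3* against 73.4 to 73.7. Both gaps are small beside the distance to the KO males.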

How the results depend on the processing

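No paired analysis was possible because replicate numbers follow accession order and pair no animals. Of the counts of called genes, those larger in KO males were 22 with DESeq2, 44 with no filter, 18 with the letter as covariate and 3 without WT males 2D and 5D, and those larger in HET females 5, 36 and 6 in the first 3 of these. The KO response gave 244 up and 30 down without 2D and 5D, and 469 down with no filter, 611 with the letter and 134 at the 0.05 threshold. The HET response gave 194 and 144 up with no filter and the letter, and down 14 with DESeq2, 34 with no filter, 13 with the letter and 1 at 0.05. Average falls were 418 with no filter, 108 at 0.05 and 70 without 2D and 5D, and departures from 0.5 were 26 and 13 with no filter. The HET share of rising genes was 65.7% with no filter, and *Ttr* turned to 0.74 without 2D and 5D.

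With each animal left out, the range was 5 to 9 for genes larger in KO males and 0 to 1 in HET females, 446 to 705 up and 107 to 424 down for the KO response, 50 to 84 up and 0 to 7 down for the HET response, 519 to 769 up and 123 to 502 down for the average, and 0 for departures. KO falls were 125, 107, 158, 113 and 135 without 2D, 5D, 7D, 2E and 3E. HET rises were 50 without 3D and 51 without 8E. The HET share was 56.5% to 63.9% for rises and 52.9% to 90.7% for falls, the latter without 9D. *Tdrd1* ranged from -0.15 to 0.22. In genes called without the animal, mean levels were 0.065 and 0.058 for rising genes in WT males and females, and -0.10, -0.24 and -0.13 for falling genes in WT males, KO males and HET females. The causes of these changes were not tested, except that fewer animals or genes were tested where some were left out. *Cilp2*, *Tex14* and *Scarf2* were called under every alternative run.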
